A study of Mus musculus with 6 samples.

Results

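The genes described here are NRF2, the master transcription factor of the antioxidant response, its inhibitor KEAP1, and the enzymes that supply glutathione and thioredoxin, remove peroxides and superoxide, and handle haem, quinones and iron. They were taken by gene symbol from a list of 39 mouse genes, which was chosen with earlier results of these data known. Of these, 38 are among the 16229 genes of the deposited table, and 37 passed the filter on low values (a mean of at least 0 log2 CPM over all libraries) and were tested, among 12981 genes in all. The glutathione transferase gene Gsta3 was listed but lay below the filter, and G6pdx was not analysed here.

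Poly-A RNA was measured in 6 heart samples of male C57BL/6 mice aged 8-10 weeks, with 2 libraries in each of 3 groups. Untreated mice gave replicates 8 and 9. Mice given rivaroxaban, an oral inhibitor of coagulation factor Xa, at 3 mg/kg for 7 days gave replicates 14 and 15, and mice given dabigatran, an inhibitor of thrombin (factor IIa), at 10 mg/kg for 7 days gave replicates 10 and 12. The drugs were thus given at different doses, and both were compared with the same 2 untreated libraries. The tissue is labelled as the infarct and what surrounds it, in a series on ischemia-reperfusion injury. The labels do not say whether untreated mice had surgery, whether the libraries of a group came from separate mice, or which were processed together, so the p-values describe the spread among these libraries alone, which may be technical.

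The libraries held 27176892 to 43798222 reads in the genes listed, with a median of 594 to 975 reads for a tested gene. Of 7 cardiomyocyte markers, 5 were measured, and Actc1 and Pln were not analysed here. The sum of the 5 did not overlap between groups. It was 70543 to 71088 CPM in untreated hearts, 66551 to 68085 CPM with rivaroxaban and 69156 to 69358 CPM with dabigatran. None of the 5 was called in any comparison (limma), and with each drug 4 were below and 1 above untreated. Lack of overlap is common here. Among single tested genes it held for 50.6% with rivaroxaban, 43.6% with dabigatran and 39.7% between the drugs. Of 7 neutrophil markers, 6 were measured. Their sum was 6.74 to 7.12 CPM in untreated hearts, 5.10 to 6.16 CPM with rivaroxaban and 4.63 to 6.67 CPM with dabigatran. Only 2 of them were tested. These differed from untreated in opposite directions with each drug, and neither was called. The neutrophil alarmin S100a8 had only 9 to 17 reads in any library. The sum of 6 mesothelium markers was lower in treated hearts, at 39.5 to 45.5 CPM with rivaroxaban and 48.6 to 53.4 CPM with dabigatran, against 69.4 to 73.5 CPM in untreated hearts. That of 9 macrophage markers overlapped between all groups (382 to 445 CPM). In RNA from whole tissue, fewer cells of a type and less RNA per cell cannot be told apart.

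NRF2, encoded by Nfe2l2, is held in the cytoplasm by KEAP1, which presents it to a CUL3 ubiquitin ligase for degradation. Oxidants and electrophiles modify cysteines of KEAP1, NRF2 then escapes degradation, pairs in the nucleus with a small MAF protein (MAFF, MAFG or MAFK) and binds antioxidant response elements in the promoters and enhancers of its target genes. NRF2 is thus controlled largely at the protein level, which RNA does not measure, and the heart relies on its targets to limit oxidative damage when blood flow returns.

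The antioxidant response element has the core TGACNNNGC. It was searched on both strands of the 300 bases that reach from 250 before to 50 after each start site, in RefSeq promoters of GRCm38.p6. Of the 38 genes, 32 had a promoter there, and 9 of them (28.1%) held the core, against 16.8% of tested genes and 14.0% of all genes of the promoter table. Gclc, Gsr, Gsta4, Hmox1, Prdx6 and Sod3 had no entry. The sequences below, read 5′ to 3′ on the strand of the gene with the core in capitals, are those of Nfe2l2 and the small MAF genes Mafk and Maff, whose mRNA differed between groups, and of 3 classical targets. In Mafk, Prdx1, Gclm and Txnrd1 the core lies on the opposite strand and therefore reads GCNNNGTCA.
Nfe2l2, chr2:75704880-75704913, minus strand: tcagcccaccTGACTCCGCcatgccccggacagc
Maff, chr15:79346494-79346532, plus strand: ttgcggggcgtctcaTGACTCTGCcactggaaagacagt
Mafk, chr5:139791508-139791535, plus strand: cgcgcgatcccggaaGCGGTGTCAgtac
Prdx1, chr4:116685451-116685489, plus strand: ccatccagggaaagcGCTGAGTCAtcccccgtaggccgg
Gclm, chr3:122245408-122245446, plus strand: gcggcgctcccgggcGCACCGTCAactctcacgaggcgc
Txnrd1, chr10:82859099-82859137, plus strand: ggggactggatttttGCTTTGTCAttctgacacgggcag
The core overlaps the site of AP-1 factors, TGACTCA, which the match in Prdx1 also holds on its opposite strand. The other 5 members with the core were Gsta3, Gstm5, Mgst1, Sod1 and Srxn1. Enhancers outside these windows, where many response elements lie, were not searched, and a match describes letters, not binding.

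The antioxidant genes differed widely in level, and most were among the well expressed genes of the heart. Levels are compared as CPM per kilobase of annotated exon in untreated hearts, where the median of all tested genes was 4.61. Fth1, the ferritin heavy chain that oxidises and stores iron, led with 561. It was followed by Gpx4, which reduces lipid hydroperoxides (414), the microsomal transferase gene Mgst3 (248), the ferritin light chain gene Ftl1 (235) and the mitochondrial peroxiredoxin gene Prdx3 (230). Catalase stood at 125 and Gsr, which regenerates reduced glutathione, at 11.3. Nfe2l2 itself had 25.2 and Keap1 8.68. Inducible targets of NRF2 were spread over a wide range, with Nqo1 at 45.5, Srxn1 at 9.80, Hmox1 at 7.09, Gclc at 5.09, Osgin1 at 1.35 and Gclm at 0.750. Slc7a11, the cystine importer, Gsta3 and Gss were near the bottom at 0.218, 0.202 and 0.164.

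**Figure D1:**
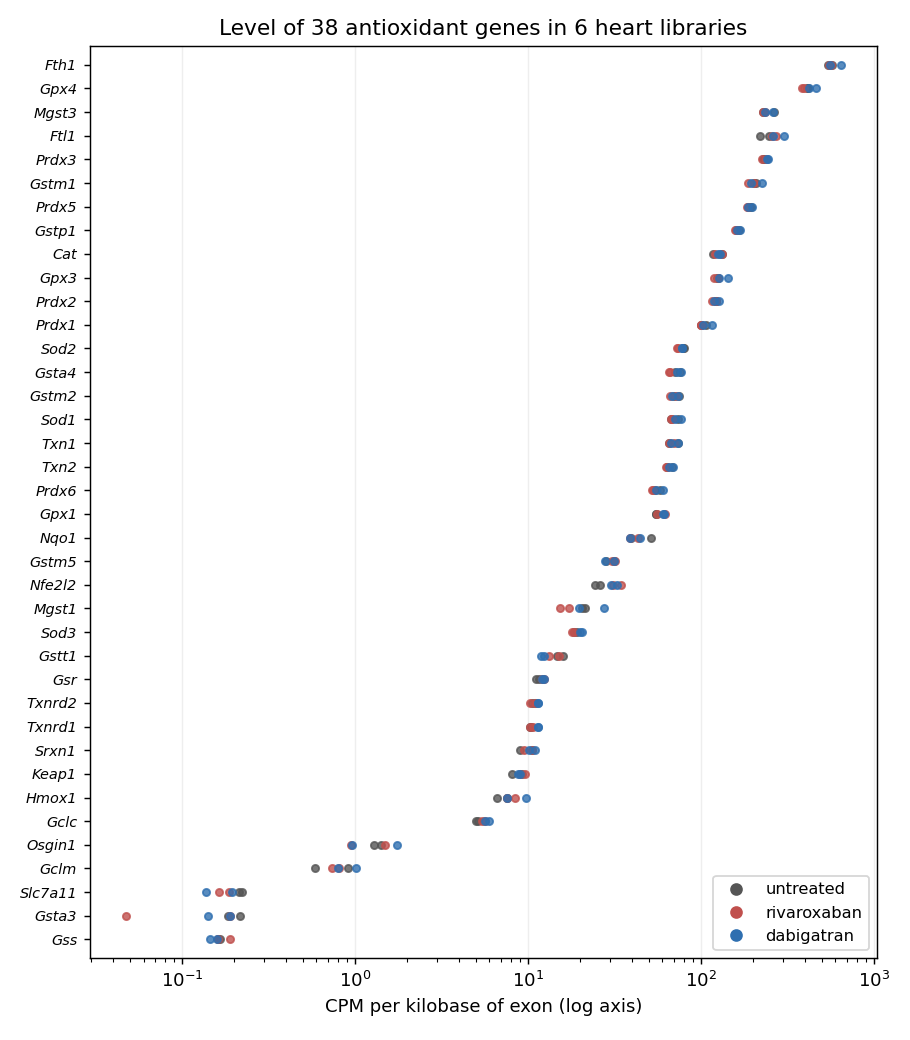
Level of the 38 listed antioxidant genes in each of the 6 libraries, as CPM per kilobase of annotated exon on a log axis; each point is 1 library, coloured by group. The genes span from 0.164 for Gss to 561 for Fth1 (untreated means), and for most genes the points of the 3 groups lie close together.

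Among the 37 genes, the regulator Nfe2l2 passed the threshold with both drugs, and no enzyme did. With rivaroxaban, 1 gene was higher and none lower than in untreated hearts (limma, adjusted p under 0.05), where 2.46% of all tested genes were called. The median log2 difference was -0.04, beside 0.01 over all tested genes, and single genes ranged from -0.36 to 0.38. With dabigatran, again 1 gene was higher and none lower, where 1.88% of all genes were called, and the median was 0.04 (0.00 over all genes), with a range from -0.40 to 0.33. With each drug, 1 called gene among 37 members was close to the share of all tested genes. Between rivaroxaban and dabigatran no member was called, where 0.077% of all genes were. The median there was -0.08 (0.00 over all genes). At an unadjusted p under 0.05 there were 5, 5 and 6 of 37 members in these comparisons, beside 17.2%, 14.7% and 8.43% of all tested genes.

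For most members the 95% interval was narrow, but it describes the spread among these libraries alone, which may be technical. For 31 of 37 genes with each drug, and 32 of 37 between the drugs, the 95% interval lay within 1.41-fold of no difference (75.4%, 76.0% and 79.0% of all genes). The libraries of rivaroxaban and untreated hearts did not overlap for 15 of 37 members (6 higher, 9 lower), where 50.6% of all tested genes did not overlap. For dabigatran this was 15 (11 higher, 4 lower), against 43.6% of all genes. Between the drugs it was 16 (2 higher with rivaroxaban, 14 lower), against 39.7% of all genes. These shares of members, 40.5%, 40.5% and 43.2%, are thus close to or below those of all genes.

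**Figure D2:**
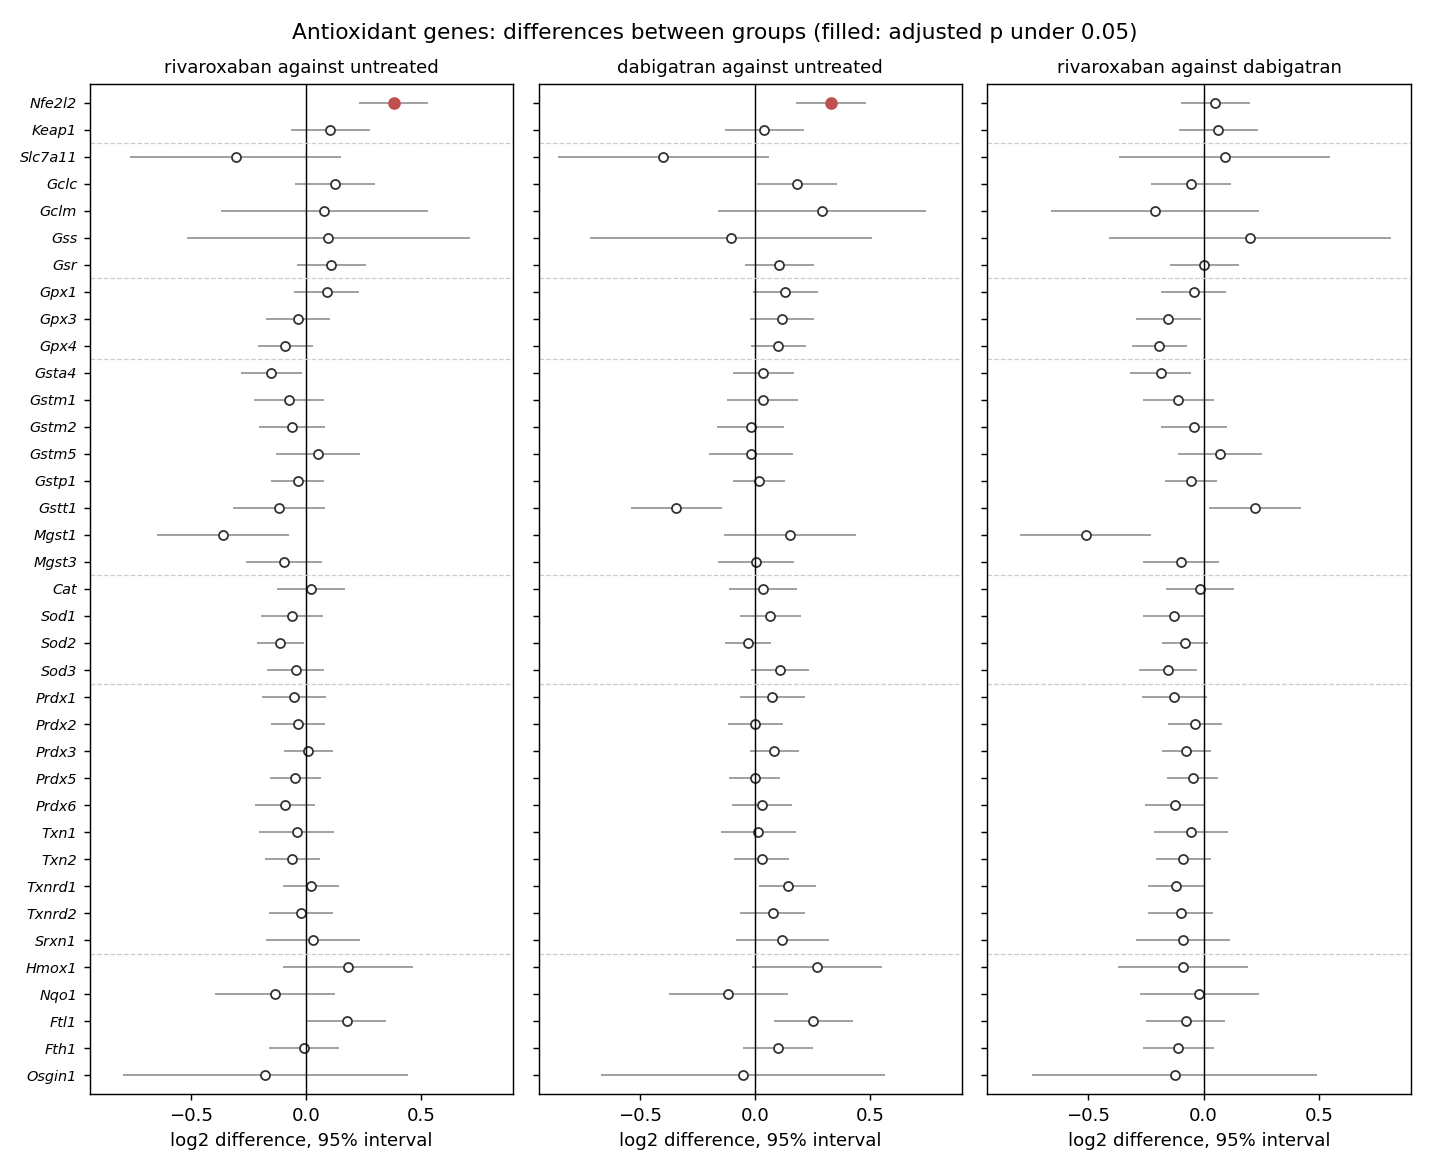
Log2 difference of each of the 37 tested antioxidant genes, grouped by role, for rivaroxaban against untreated, dabigatran against untreated and rivaroxaban against dabigatran; circles are estimates, lines 95% intervals and filled circles genes with a limma adjusted p under 0.05. Only Nfe2l2 is filled, in the first and second panels, and the intervals of Slc7a11, Gclm, Gss and Osgin1 are the widest.

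Nfe2l2 was the only member called, and it was higher with both drugs. Gclc, Gsr, Gpx1 and Ftl1 also lay above both untreated libraries in every treated library, but were not called. The level of Nfe2l2 was 6.63 and 6.53 log2 CPM in the untreated libraries (8 and 9). It was 6.89 and 7.03 with rivaroxaban (14 and 15) and 6.97 and 6.85 with dabigatran (10 and 12), from 2822 to 5045 reads. Every treated library was above both untreated ones, and the drug groups overlapped. The rise was 1.30-fold with rivaroxaban (95% interval 1.17 to 1.45; log2 0.38, SE 0.07, limma adjusted p = 0.0171). With dabigatran it was 1.26-fold (1.13 to 1.40; log2 0.33, SE 0.07, limma adjusted p = 0.0376). Rivaroxaban and dabigatran differed by log2 0.05 (-0.10 to 0.20; limma adjusted p = 0.891). The gene (ENSMUSG00000015839) is annotated as protein-coding on the minus strand of chromosome 2, from 75675513 to 75704641 of GRCm38. The rivaroxaban call was lost without untreated replicate 9 (log2 0.33, limma adjusted p = 0.0846), without rivaroxaban replicate 15 (0.31, 0.220) and without a mean-variance trend (0.38, 0.170). The dabigatran call was lost without untreated replicate 8 (0.38, 0.0858) or 9 (0.28, 0.144), without dabigatran replicate 10 (0.27, 0.209), with quantile normalization (0.32, 0.0543) and without the trend (0.33, 0.243). Mesothelium markers fell in the same libraries (5 of 6 with rivaroxaban and 2 of 6 with dabigatran called lower, 1 called higher with each), and their part in the rise of Nfe2l2 was not tested.

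Keap1, the repressor, was not called. It stood at 5.24 and 5.45 log2 CPM in untreated hearts, 5.41 and 5.50 with rivaroxaban and 5.37 and 5.41 with dabigatran, so all groups overlapped. Its log2 difference was 0.11 with rivaroxaban (95% interval -0.07 to 0.28; limma adjusted p = 0.513) and 0.04 with dabigatran (-0.13 to 0.21; limma adjusted p = 0.851). The gene lies on chromosome 9 from 21229730 to 21239361, minus strand.

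Partners and repressors of NRF2, with related genes, were measured through a list of 12 genes, of which 11 were tested. The list was chosen with earlier results of these data known. With each drug 2 were called higher and none lower, where 2.46% of all tested genes were called with rivaroxaban and 1.88% with dabigatran. The medians were 0.12 for rivaroxaban and 0.06 for dabigatran, and none was called between the drugs. Both called genes encode small MAF proteins, which lack an activation domain and bind DNA as partners of NRF2 or of the repressor BACH1. Mafk was 5.55 and 5.71 log2 CPM in untreated, 5.91 and 6.08 in rivaroxaban and 5.99 and 5.97 in dabigatran hearts. It rose 1.29-fold with rivaroxaban (log2 0.36, SE 0.08, limma adjusted p = 0.0315) and 1.28-fold with dabigatran (log2 0.35, SE 0.08, limma adjusted p = 0.0411). Maff, the small MAF known to be induced by stress and growth signals, was 3.22 and 3.08 in untreated, 3.58 and 3.82 in rivaroxaban and 3.71 and 3.64 in dabigatran hearts. It rose 1.46-fold (log2 0.55, SE 0.11, limma adjusted p = 0.0289) and 1.44-fold (log2 0.53, SE 0.11, limma adjusted p = 0.0401). For both genes all 4 treated libraries lay above the untreated ones, and the drugs differed by log2 0.01 (-0.15 to 0.18) for Mafk and 0.02 (-0.22 to 0.27) for Maff.

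These calls lie close to the threshold. Of 14 alternative settings, 4 ended the rivaroxaban call of Mafk and 4 that of Maff, and 8 and 7 ended the dabigatran calls. With rivaroxaban, Mafk was not called without untreated replicate 8 (log2 0.29, limma adjusted p = 0.190) or rivaroxaban replicate 15 (0.28, 0.307). Maff was not called without untreated replicate 8 (0.62, limma adjusted p = 0.0761) or 9 (0.48, 0.121) or rivaroxaban replicate 15 (0.43, 0.286). With dabigatran, Mafk was called neither without untreated replicate 8 (0.27, limma adjusted p = 0.229) nor without dabigatran replicate 10 (0.34, 0.178) or 12 (0.36, 0.0953), and it just missed without rivaroxaban replicate 14 (0.35, 0.0510) or 15 (0.35, 0.0509). Maff was not called without untreated replicate 8 (0.60, limma adjusted p = 0.105) or 9 (0.46, 0.152) or dabigatran replicate 10 (0.49, 0.209) or 12 (0.57, 0.0831).

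The third small MAF gene, Mafg, and the repressor gene Bach1, named after their values were seen, were not called. Mafg had log2 differences of 0.24 and 0.21 (limma adjusted p = 0.0845 and 0.145), and Bach1 of 0.31 and 0.33 (0.127 and 0.123). The remaining tested genes of this list were Nfe2l1, Bach2, Cul3, Rbx1, Btrc, Gsk3b and Sqstm1, none of them called. Mafk lies on chromosome 5 from 139791513 to 139802653 and Maff on chromosome 15 from 79346621 to 79359076, both on the plus strand.

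**Figure D3:**
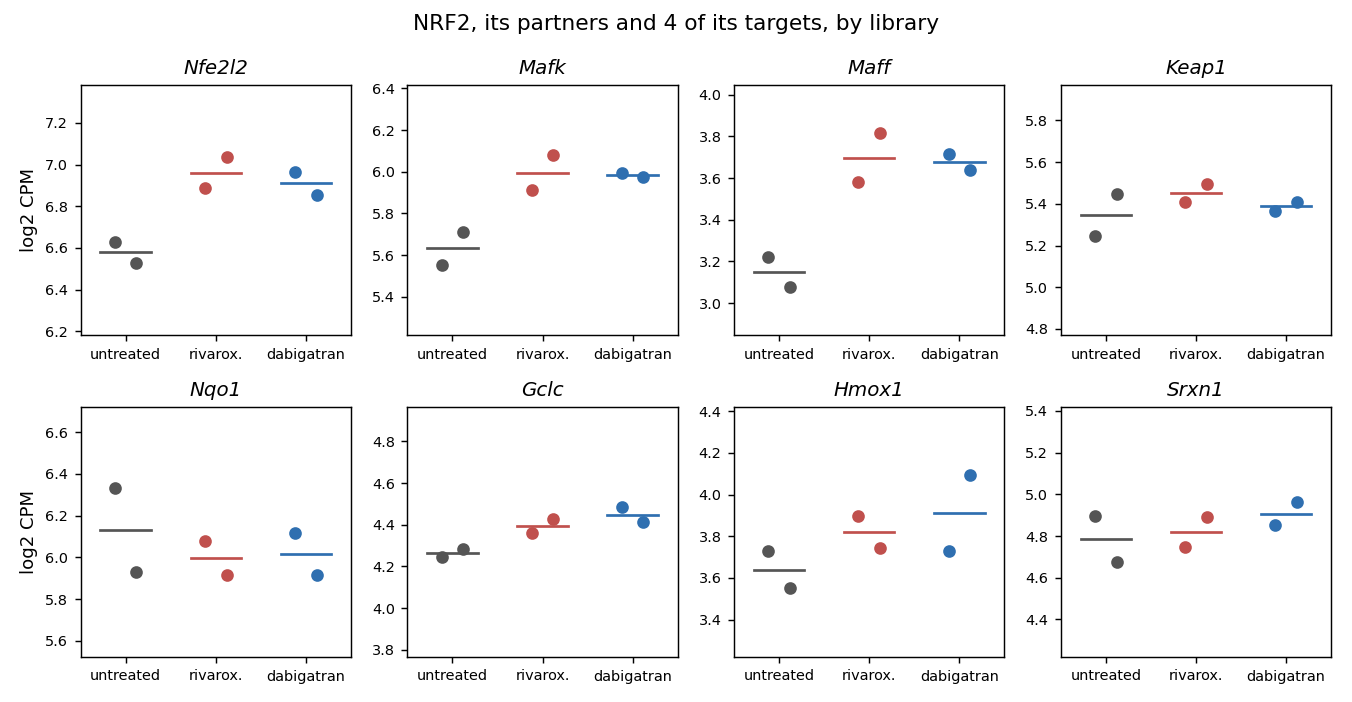
Log2 CPM of Nfe2l2, its partners Mafk and Maff, the repressor Keap1 and the targets Nqo1, Gclc, Hmox1 and Srxn1 in each library. Points are libraries and bars are group means. Every panel spans the same log2 range, centred midway between the lowest and highest library of its gene. In Nfe2l2, Mafk, Maff and Gclc all 4 treated libraries lie above both untreated ones, though Gclc was not called. In Hmox1, also not called, this holds for the rivaroxaban libraries, while dabigatran and untreated libraries overlap. In Keap1, Nqo1 and Srxn1 the groups overlap.

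The classical inducible targets of NRF2 were not called with either drug; values per library are given for Nqo1 and Hmox1, chosen after their values were seen. Nqo1, a quinone reductase often used as a readout of NRF2, had log2 differences of -0.13 with rivaroxaban (95% interval -0.39 to 0.12) and -0.12 with dabigatran (-0.37 to 0.14). Its untreated libraries were themselves apart, at 6.33 and 5.93 log2 CPM, and enclosed all treated ones but 2, which lay just below at 5.92 and 5.91. Hmox1, haem oxygenase 1, was 3.73 and 3.55 in untreated, 3.90 and 3.75 in rivaroxaban and 3.73 and 4.09 in dabigatran hearts. Its differences were 0.18 (-0.10 to 0.46; limma adjusted p = 0.491) and 0.27 (-0.01 to 0.55; 0.357). Srxn1, sulfiredoxin, which repairs overoxidised peroxiredoxins, differed by 0.03 (-0.17 to 0.23) and 0.12 (-0.08 to 0.32). Osgin1, a growth inhibitor induced by oxidative stress, differed by -0.18 (-0.79 to 0.44) and -0.05 (-0.67 to 0.57), with only 92 to 126 reads a library. A further list of 22 NRF2 targets, among them the enzymes of NADPH supply and carbonyl reduction, had 20 tested genes. None was called in any comparison (limma), where 2.46% of all tested genes were called with rivaroxaban, 1.88% with dabigatran and 0.077% between the drugs. A list this short would hold few or none at such shares. The medians were -0.04 with rivaroxaban and 0.01 with dabigatran.

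The genes of glutathione supply were not called. Gclc, the catalytic subunit of the enzyme that limits glutathione synthesis, was 4.25 and 4.29 log2 CPM in untreated, 4.36 and 4.43 in rivaroxaban and 4.49 and 4.41 in dabigatran hearts. All treated libraries were thus above the untreated ones, by log2 0.13 with rivaroxaban (-0.05 to 0.30; limma adjusted p = 0.433) and 0.18 with dabigatran (0.01 to 0.36; 0.309). Gsr, glutathione reductase, was 5.001 and 4.94 in untreated, 5.09 and 5.06 in rivaroxaban and 5.05 and 5.10 in dabigatran hearts, again without overlap. It differed by 0.11 with each drug (limma adjusted p = 0.439 and 0.519). Slc7a11, which imports cystine for glutathione and is shown by library after its values were seen, lay below the untreated level in all 4 treated libraries. It was 1.61 and 1.66 in untreated, 1.42 and 1.24 in rivaroxaban and 1.48 and 0.99 in dabigatran hearts, from 67 to 100 reads. The log2 differences were -0.30 (-0.76 to 0.15; limma adjusted p = 0.480) and -0.40 (-0.86 to 0.06; 0.411). Gclm, the modifier subunit, and Gss, glutathione synthetase, had wide intervals or few reads: Gclm differed by 0.08 (-0.37 to 0.53) and 0.29 (-0.16 to 0.74), and Gss had 23 to 41 reads a library.

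Among the 3 glutathione peroxidases, no difference from untreated hearts was called. Gpx4 was 9.47 and 9.48 log2 CPM in untreated, 9.40 and 9.37 in rivaroxaban and 9.65 and 9.51 in dabigatran hearts. Rivaroxaban libraries were the lowest and dabigatran libraries the highest, with no overlap. Rivaroxaban was below dabigatran by log2 -0.19 (-0.31 to -0.07; limma adjusted p = 0.336), with -0.09 and 0.10 against untreated. Gpx3, the secreted plasma peroxidase, was 7.83 and 7.81 in untreated, 7.75 and 7.82 in rivaroxaban and 8.03 and 7.85 in dabigatran hearts. It differed between the drugs by -0.15 (limma adjusted p = 0.548). Gpx1, the cytosolic enzyme, had differences of 0.09 with rivaroxaban and 0.13 with dabigatran.

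Of 9 glutathione S-transferase genes, which join glutathione to electrophiles, 8 were tested and none was called. Mgst1, a membrane-bound transferase that also reduces lipid peroxides, varied most: 5.44 and 5.36 log2 CPM in untreated, 5.13 and 4.95 in rivaroxaban and 5.80 and 5.31 in dabigatran hearts. The rivaroxaban libraries were the lowest, while the dabigatran libraries lay on either side of the untreated ones. The log2 difference was -0.36 for rivaroxaban against untreated (-0.65 to -0.07; limma adjusted p = 0.185) and -0.51 against dabigatran (-0.80 to -0.23; 0.280). With only the 4 untreated and rivaroxaban libraries in the fit, Mgst1 passed against untreated (-0.36, limma adjusted p = 0.0363). It also passed without dabigatran replicate 10 (0.0364) or 12 (0.0342). Without replicate 12 it passed between the drugs as well (-0.76, limma adjusted p = 0.0143). Mgst1 lies on chromosome 6 from 138140316 to 138156755, plus strand.

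Gstt1, a theta-class transferase, was 4.50 and 4.61 log2 CPM in untreated, 4.34 and 4.54 in rivaroxaban and 4.24 and 4.19 in dabigatran hearts. Both dabigatran libraries were below all others, by log2 -0.34 against untreated (-0.54 to -0.14; limma adjusted p = 0.0952). Rivaroxaban exceeded dabigatran by 0.22 (0.02 to 0.42; limma adjusted p = 0.534). Gsta4, which detoxifies the lipid aldehyde 4-hydroxynonenal, was 6.59 and 6.48 in untreated, 6.38 and 6.39 in rivaroxaban and 6.61 and 6.54 in dabigatran hearts. Both rivaroxaban libraries were the lowest, by -0.15 against untreated (limma adjusted p = 0.231) and -0.19 against dabigatran (0.394). Mgst3, the most abundant transferase per length, was 8.19 and 7.97 in untreated, 7.97 and 8.01 in rivaroxaban and 8.17 and 8.01 in dabigatran hearts, and the groups overlapped. Gstm1, Gstm2, Gstm5 and Gstp1 lay within log2 -0.07 to 0.05 of untreated hearts with both drugs. Gstp1 has a near-identical neighbour, Gstp2, listed with 63.6% to 66.9% of its reads, and how reads were split between them is uncertain. Gsta3 had 27 and 26 reads in untreated, 30 and 6 in rivaroxaban and 22 and 27 in dabigatran hearts, and was not tested.

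Neither catalase nor any of the 3 superoxide dismutases was called. Cat was 8.43 and 8.27 log2 CPM in untreated, 8.29 and 8.44 in rivaroxaban and 8.36 and 8.40 in dabigatran hearts, with overlap of all groups and log2 differences of 0.02 (-0.13 to 0.17) and 0.04 (-0.11 to 0.18). Sod2, the mitochondrial dismutase, was 9.64 and 9.62 in untreated, 9.52 and 9.51 in rivaroxaban and 9.60 and 9.60 in dabigatran hearts. The rivaroxaban libraries were the lowest, by -0.11 against untreated (-0.21 to -0.01; limma adjusted p = 0.248). Sod3, the extracellular dismutase, was 6.16 and 6.12 in untreated, 6.08 and 6.11 in rivaroxaban and 6.27 and 6.23 in dabigatran hearts. It was lower with rivaroxaban than with dabigatran in every library, by -0.15 (-0.28 to -0.03; limma adjusted p = 0.492). Sod1, the cytosolic enzyme, differed from untreated by -0.06 and 0.07.

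In the thioredoxin and peroxiredoxin system, which reduces peroxides through cysteine thiols, none of 10 genes was called. Txnrd1, the cytosolic thioredoxin reductase and an NRF2 target, was 6.19 and 6.22 log2 CPM in untreated, 6.20 and 6.25 in rivaroxaban and 6.34 and 6.35 in dabigatran hearts. Dabigatran libraries were the highest, by log2 0.14 against untreated (0.02 to 0.27; limma adjusted p = 0.261). Prdx3, the most abundant peroxiredoxin per length, was 8.40 and 8.41 in untreated, 8.39 and 8.45 in rivaroxaban and 8.50 and 8.49 in dabigatran hearts, differing by 0.01 with rivaroxaban (-0.09 to 0.12) and 0.09 with dabigatran (-0.02 to 0.19). The other members, Prdx1, Prdx2, Prdx5, Prdx6, Txn1, Txn2, Txnrd2 and Srxn1, lay between -0.09 and 0.12 of untreated. All 10 estimates were above 0 for dabigatran against untreated and below 0 for rivaroxaban against dabigatran, comparisons that share the dabigatran libraries. Of all genes, 50.8% and 50.4% were above 0 in these comparisons. Prdx5 (log2 5.12e-05) and Prdx2 (0.003) barely differed between dabigatran and untreated hearts. Without dabigatran replicate 10, 4 of 10 were above 0 against untreated and 8 of 10 below 0 between the drugs. Against untreated, 6 of 10 were above 0 without untreated replicate 9, 8 with median centring and 9 with quantile normalization.

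Among the genes of iron storage, Ftl1, the ferritin light chain, was 8.38 and 8.21 log2 CPM in untreated, 8.43 and 8.52 in rivaroxaban and 8.66 and 8.45 in dabigatran hearts. All treated libraries lay above the untreated ones, by log2 0.18 with rivaroxaban (0.01 to 0.35; limma adjusted p = 0.276) and 0.25 with dabigatran (0.08 to 0.43; 0.145). Without dabigatran replicate 12 the dabigatran difference was 0.36 and passed (limma adjusted p = 0.0440). A processed copy, Ftl1-ps1, named after its values were seen, was listed with 52.6% to 53.6% of the reads of Ftl1 in every library and had log2 differences of 0.17 and 0.26, and how reads were divided between them is uncertain. Fth1 was 10.97 and 10.89 in untreated, 10.89 and 10.95 in rivaroxaban and 11.13 and 10.92 in dabigatran hearts. Its groups overlapped, with differences of -0.01 (-0.16 to 0.14) and 0.10 (-0.05 to 0.25). Ftl1 lies on chromosome 7 from 45457944 to 45459884, minus strand.

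The list of 16 other genes of iron handling and lipid peroxidation had 14 tested members. With dabigatran 1 was called higher and none lower, where 1.88% of all tested genes were called. With rivaroxaban none was called, where 2.46% of all tested genes were (medians 0.02 with dabigatran and -0.05 with rivaroxaban). The called gene, Slc40a1, encodes ferroportin, the exporter that releases iron from cells and a known NRF2 target. It was 4.61 and 4.51 log2 CPM in untreated, 4.68 and 5.22 in rivaroxaban and 5.14 and 5.27 in dabigatran hearts. All treated libraries were above the untreated ones, but rivaroxaban replicate 14 only slightly. The rise with dabigatran was 1.56-fold (1.26 to 1.94; log2 0.64, SE 0.14, limma adjusted p = 0.0444). With rivaroxaban the log2 difference was 0.39 (0.08 to 0.70; limma adjusted p = 0.181), which passed without replicate 14 (0.66, limma adjusted p = 0.0132). The dabigatran call was lost in 8 of 14 settings, including the loss of untreated replicate 8 (0.69, limma adjusted p = 0.147) or 9 (0.59, 0.159) and of dabigatran replicate 10 (0.71, 0.114) or 12 (0.58, 0.144). Slc40a1 is abundant in macrophages that recycle iron from red cells. In these libraries 1 of 9 macrophage markers, Cd163, was called higher with rivaroxaban and none with dabigatran. Of 7 red cell markers, Slc4a1 was the only 1 tested. It had 23 and 7 reads in untreated, 66 and 36 in rivaroxaban and 68 and 74 in dabigatran hearts, and was called higher with dabigatran. It passed the filter on low values only through the treated libraries, so this call is no independent measure of red cells. The part of macrophages and red cells in the rise of Slc40a1 was not tested. Slc40a1 lies on chromosome 1 from 45908068 to 45926523, minus strand.

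Tfrc, the transferrin receptor that imports iron, was named after its values were seen because it had the largest difference of its list and did not pass. It was 6.65 and 7.16 log2 CPM in untreated, 6.44 and 5.26 in rivaroxaban and 5.78 and 5.44 in dabigatran hearts. Every treated library was below both untreated ones, and the rivaroxaban pair was far apart. The log2 differences were -1.05 with rivaroxaban (-1.70 to -0.41; limma adjusted p = 0.0955) and -1.29 with dabigatran (-1.94 to -0.65; 0.0532).

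**Figure D4:**
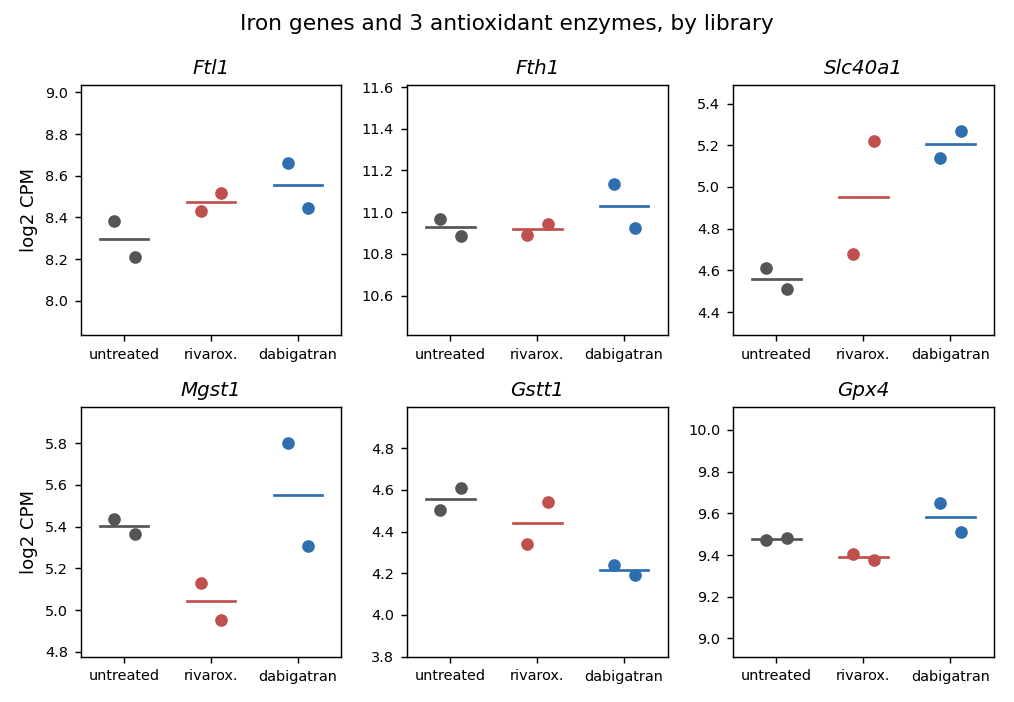
Log2 CPM of the ferritin genes Ftl1 and Fth1, the iron exporter Slc40a1, the transferases Mgst1 and Gstt1 and the peroxidase Gpx4 in each library. Points are libraries and bars are group means. Every panel spans the same log2 range, centred midway between the lowest and highest library of its gene. Slc40a1 is higher in both dabigatran libraries and 1 rivaroxaban library (5.14 to 5.27) than in untreated ones (4.51 and 4.61), and Mgst1 is lowest in the rivaroxaban libraries.

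Other lists of the redox network held no called gene in any comparison (limma). Of all tested genes, 2.46% were called with rivaroxaban, 1.88% with dabigatran and 0.077% between the drugs. These lists are so short that each would hold few or none at such shares. They covered 25 tested glutathione and thiol enzymes, 10 sources of reactive oxygen such as NADPH oxidase subunits, 9 genes of selenoprotein synthesis and 9 of the ATF4 pathway, which controls amino acid supply for glutathione. Their medians were -0.06, 0.05, -0.04 and 0.03 with rivaroxaban and 0.02, 0.01, 0.00 and -0.05 with dabigatran. Atf4 itself, named after its values were seen, had log2 differences of 0.32 and 0.33 and did not pass (limma adjusted p = 0.0563 and 0.0590).

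The antioxidant genes also shifted together between libraries of the same group. In dabigatran replicate 10, 32 of 37 members lay above their own mean over the 6 libraries, against 51.2% of all genes. In untreated replicate 9 and rivaroxaban replicate 14 only 9 of 37 did (48.7% and 51.2% of all genes). Within the untreated group 29 of 37 members were higher in replicate 8 than in 9 (78.4%, against 51.4% of all genes), and within dabigatran 28 of 37 were higher in 10 than in 12 (75.7%, against 49.7%). In the rivaroxaban pair 11 of 37 were higher in 14 than in 15 (29.7%, against 50.9%). The median difference over the members was log2 0.07 between the untreated libraries, -0.05 between the rivaroxaban libraries and 0.10 between the dabigatran libraries.

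The balance of directions between groups changed when single libraries were left out. Of all tested genes, 51.5% were above 0 with rivaroxaban, 50.8% with dabigatran and 50.4% for rivaroxaban against dabigatran. For dabigatran against untreated, 29 of 37 members were above 0, but 17 without dabigatran replicate 10 and 19 without untreated replicate 9, and the median of 0.04 became -0.0046 and 0.0003. For rivaroxaban against untreated, 14 of 37 were above 0, but 20 without untreated replicate 8 and 19 without rivaroxaban replicate 14, with medians of 0.0052 and 0.0024. Between the drugs, 30 of 37 were below 0 with rivaroxaban, and 25 without dabigatran replicate 10, where the median moved from -0.08 to -0.02. Other lists tilted likewise between the drugs: 16 of 20 further NRF2 targets, 19 of 25 other glutathione and thiol enzymes and all 5 cardiomyocyte markers were below 0. The other way, 7 of 9 genes of the ATF4 pathway and 4 of 6 fibroblast markers were above 0. Nfe2l2 had the same order within each pair as most members, higher in untreated replicate 8 than in 9, in rivaroxaban replicate 15 than in 14 and in dabigatran replicate 10 than in 12, with both untreated libraries below all treated ones.

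**Figure D5:**
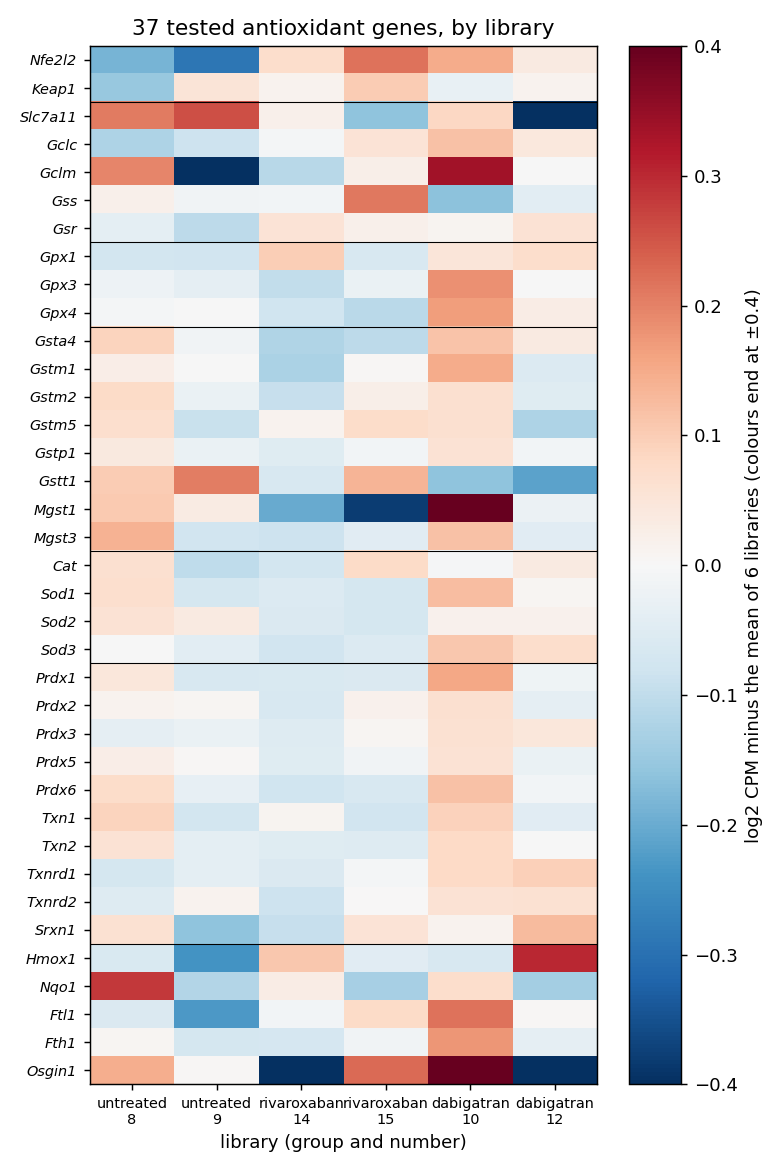
Log2 CPM of the 37 tested antioxidant genes in each library, minus the gene's mean over the 6 libraries, grouped by role; red is above and blue below the mean, and colours end at ±0.4. The column of dabigatran replicate 10 is red for 32 of 37 genes, and Nfe2l2 is blue in both untreated libraries and red in all treated ones.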

How the data were processed

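Poly-A RNA from 6 heart samples was sequenced with a directional kit, per the labels' protocols. Per the submitters' processing notes, the tools were STAR, Trim Galore, FastQC, bcl2fastq and edgeR, on mm10. Which program counted reads, and on which annotation, is not given in the sources used here. The deposited values are log2 CPM scaled by TMM, per the file headers. A shared floor of -4.04 shows that a small amount was added before the log2, which understates fold changes of low genes. With that floor (0.0609 CPM) subtracted, 100% of low values were whole multiples of 1 read within 0.02 reads, which gave the read numbers. Read numbers carry no molecular identifiers and so are not numbers of independent molecules.

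All genes with a mean of at least 0 log2 CPM were fitted with limma 3.58.1 in R 4.3.3 (3 group means, 6 libraries, mean-variance trend, 3 residual and 7.75 prior degrees of freedom). The two-sided p-values were adjusted (Benjamini-Hochberg) over all 12981 genes, with a threshold of 0.05 and intervals at 95%. The fit was also run on simulated data with independent noise for each gene and library. Those data lack the joint shifts of genes between libraries described above, so they do not check the fit for such shifts.

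Values per library are given for Nfe2l2, Keap1, members with an unadjusted p under 0.05 in any comparison and the most abundant member of each role, and for Nqo1, Hmox1 and Slc7a11, chosen after their values were seen; called genes of the other lists are named. Members and lists were chosen with earlier results of these data known. Exon lengths and coordinates come from GENCODE M21 on GRCm38, matched by Ensembl identifier. A length is the union of all annotated exons, so genes with long, rarely used exons appear too low. Of the 39 symbols, G6pdx did not match a row by symbol, Entrez or Ensembl identifier and was not analysed here. Alternatives covered the trend, the filter, the scaling, the added count, the libraries in the fit and each library left out.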

Additional observations from a re-analysis of the deposited data

How the results depend on the processing

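The number of antioxidant members called changed with several settings. For rivaroxaban against untreated it was 1, and became 0 without a mean-variance trend and 2 with only the 4 libraries compared, where Mgst1 was added. For dabigatran against untreated it was 1, and became 0 without the trend and 0 with quantile normalization. Without the trend no gene of the whole table passed in any comparison, although 1938, 1728 and 984 genes had an unadjusted limma p under 0.05. Leaving out each library in turn gave 0 to 2 members for rivaroxaban, 0 to 2 for dabigatran and 0 to 1 between the drugs. Without dabigatran replicate 12, Ftl1 joined for dabigatran and Mgst1 was called between the drugs. A group left with 1 library is assumed to vary like the others.

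Over all alternatives, the log2 difference of Nfe2l2 stayed between 0.31 and 0.46 with rivaroxaban (limma adjusted p 0.00742 to 0.220) and between 0.27 and 0.39 with dabigatran (0.0253 to 0.243). Of 1671 values of 40 genes under an alternative, 39 lost a call, 6 gained one and 1626 stayed on their side of the threshold. Among these, 87 values changed sign, in 54 of 120 gene comparisons, and none of the 87 passed the threshold. Values that changed sign but were not called are counted as having stayed on their side. With 2 libraries a group, differences of the low genes Gss, Osgin1, Slc7a11 and Gclm are the least precise. No paired analysis was possible because the groups share no replicate number.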

Other observations

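Beside Tfrc, Atf4, Mafg and Bach1, values are given here for 3 further redox genes that were not called, chosen after their values were seen. Msrb1, a selenium-dependent methionine sulfoxide reductase, was 7.35 and 7.40 log2 CPM in untreated, 7.11 and 7.06 in rivaroxaban and 7.55 and 7.30 in dabigatran hearts. The rivaroxaban libraries were the lowest, by log2 -0.29 against untreated (95% interval -0.45 to -0.13; limma adjusted p = 0.0667) and -0.34 against dabigatran (-0.50 to -0.18; 0.182). Sephs2, which makes the selenium donor for selenoproteins, was 5.01 and 5.15 in untreated, 4.82 and 4.73 in rivaroxaban and 5.01 and 4.90 in dabigatran hearts, with a difference of -0.30 with rivaroxaban (limma adjusted p = 0.0796). Gstt2, a second theta-class transferase, was 4.18 and 4.12 in untreated, 3.80 and 3.90 in rivaroxaban and 3.88 and 3.69 in dabigatran hearts. All treated libraries were below the untreated ones, by -0.30 with rivaroxaban (limma adjusted p = 0.143) and -0.37 with dabigatran (0.0952).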
